A study of Mus musculus with 10 samples.

Results

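The solute carriers are a large superfamily of membrane transport proteins, and 199 of their genes are described here in cultured leukemia stem cell lines of the mouse. A gene was taken where its symbol had the form of a numbered solute carrier (Slc, family number, the letter a and a member number), and where its probe set exceeded the median of the array on 2 or more of the 10 arrays; members were thus chosen by their measured levels, with the probe set of highest mean standing for each gene. The array held 305 genes with such symbols, of which 106 did not pass that filter; the iron and cystine transporters Slc7a11, Slc11a1, Slc11a2 and Slc40a1 were set aside by the rule and are not among the 305. Members of family 35 with the letters b to f, which lack the letter a, are not among the 199. Levels are therefore given as a description, and 156 of the 199 members (78.4%) lay above the median on all 10 arrays. The members just inside the filter, Slc16a14 and Slc2a12, were above the median on 2 arrays, and 6 genes just outside it were above on 1, with highest values between 5.79 (Slc4a9) and 6.42 (Slc7a8). The 2 arrays that brought Slc16a14 in were the inhibitor-treated arrays, so it had to be high there, and Slc25a35 and Slc12a5 were above the median on NUP98-JARID1A arrays alone.

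The samples form 4 groups. RH-RAS lines carry DNMT3A with the R882H mutation, an altered DNA methyltransferase, and NRAS-G12D, a constantly active RAS protein; 4 lines, each derived on its own, were profiled untreated. Of these, lines 1 and 3 had a second profile taken after 1 µM SGC0946 for 4 days, a compound that blocks Dot1l, the enzyme that methylates lysine on histone H3 in transcribed genes. The other oncogenes are gene fusions: 1 line carries MLL-AF9, and 3 lines carry NUP98-JARID1A, which joins nucleoporin 98 to JARID1A, a demethylase of histones. All cultures contained fetal bovine serum and stem cell factor. Each sample has 1 Affymetrix array, and the small number of arrays sets the precision of all values. Nothing in the labels says whether the untreated cultures received vehicle.

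Solute carriers move sugars, amino acids, nucleosides, vitamins, lipid precursors, metals and other ions across the plasma membrane and the membranes of lysosomes, vesicles, endoplasmic reticulum and mitochondria. They mostly work by facilitated diffusion, by exchange, or by coupling to a gradient of sodium or protons, and as a rule without hydrolysing ATP. Proliferating blood cells draw on glucose, lactate and amino acid carriers of the plasma membrane, and macrophages are rich in carriers of the lysosome. The 199 members were placed in 11 classes by their family number. The largest were amino acids and peptides (41 members), mitochondrial carriers (39), sugars (23), carboxylates, fatty acids and lipid precursors (22), and zinc, copper and magnesium (22).

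All values are log2 RMA intensities, a scale on which a difference of 1 is a 2-fold change and the array medians lay between 5.72 and 5.82. Levels of different genes come from different probes and are not compared with each other. In bulk RNA, fewer cells of a type and less RNA per cell cannot be told apart. The 6 progenitor markers fixed for these cells, among them Kit, Cd34 and Myb, lay above the median on all 10 arrays, but their mean went from 11.93 to 11.98 in untreated lines 1 to 3 and 11.82 in line 4 to 11.23 to 11.28 with SGC0946. Kit was at 10.52 and 10.71 in untreated lines 1 and 3 and at 8.71 and 8.56 treated. Cd34 went from 12.78 and 12.66 to 11.17 and 10.94, and Myb and Flt3 fell as well. In the same list Spi1 rose from 9.99 and 10.09 to 11.19 and 11.31. Ptprc was at 12.88 and 12.96 untreated and at 12.95 and 13.05 treated. The progenitor mean was 11.66 in MLL-AF9 and 11.94 to 12.24 in NUP98-JARID1A lines. The B cell markers measured lay below the array median on at least 1 array of each group. Markers of monocytes and macrophages moved with the groups. The mean of the 9 measured (of 10 fixed) was 8.24 to 8.34 in untreated lines 1 to 3, 9.63 in line 4, 11.62 to 11.72 in the treated arrays, 9.08 in MLL-AF9 and 9.90 to 10.87 in the NUP98-JARID1A lines. The 8 neutrophil markers averaged 4.59 to 4.76 in untreated RH-RAS lines, 5.04 to 5.06 with SGC0946, 9.99 in MLL-AF9 and 9.43 to 12.53 in NUP98-JARID1A lines. The 4 measured T and NK cell markers averaged 7.98 to 8.06 in untreated lines 1 to 3, 6.50 in line 4, 5.09 to 5.10 with SGC0946, 4.70 in MLL-AF9 and 5.70 to 5.89 in NUP98-JARID1A lines. Erythroid and fibroblast list means lay between 4.78 and 5.84, with single genes that moved: the erythroid marker Car2 was at 9.33 to 9.69 in untreated lines 1 to 3, 7.75 to 7.82 treated and 4.48 to 5.17 in NUP98-JARID1A lines, and the stromal marker Fn1 at 5.62 to 6.10 in untreated RH-RAS lines and 8.06 to 10.46 in NUP98-JARID1A lines. In the neutrophil list Mmp8 was at 5.02 and 5.21 in untreated lines 1 and 3 and at 7.55 and 7.66 treated. Gata3, of the T and NK list, was at 6.31 to 7.18 in untreated RH-RAS lines and higher, at 8.17 to 8.57, in NUP98-JARID1A lines. The part of these marker shifts in the results on solute carriers was not tested.

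How blocking Dot1l altered solute carrier expression was measured in RH-RAS lines 1 and 3. The main glucose carriers and the lactate exporter Slc16a3 fell, and a lysosomal peptide carrier, other members of the sugar families and a lysosomal folate-family carrier rose. With limma, 17 members rose and 16 fell at an adjusted p under 0.05, and 166 did not pass. The 33 called make up 16.6% of the members, beside 12% of all 11993 genes tested (6.84% higher and 5.12% lower). The median change was 0.11 over the members and 0.02 over all genes tested. A 2-fold change or more was seen in 7 that rose and 6 that fell, a count not made over all genes tested. Of all 199 members, 153 moved the same way in both lines, among them all 33 called. The calls were made on the mean of these same lines, so the shared direction of the 33 is no separate check. With the line as a block, which pairs each treated array with its own untreated line, 9 rose and 8 fell (7.04% of all genes were called, 3.86% higher and 3.18% lower), and 16 of the 33 were among them. Each arm has 2 arrays, and the call counts rest on both. Leaving out the array of untreated line 1 left 4 members called, that of untreated line 3 left 2, that of treated line 1 left 3 and that of treated line 3 left 1. The lone array of the arm was there assumed to vary like the others.

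**Figure D1:**
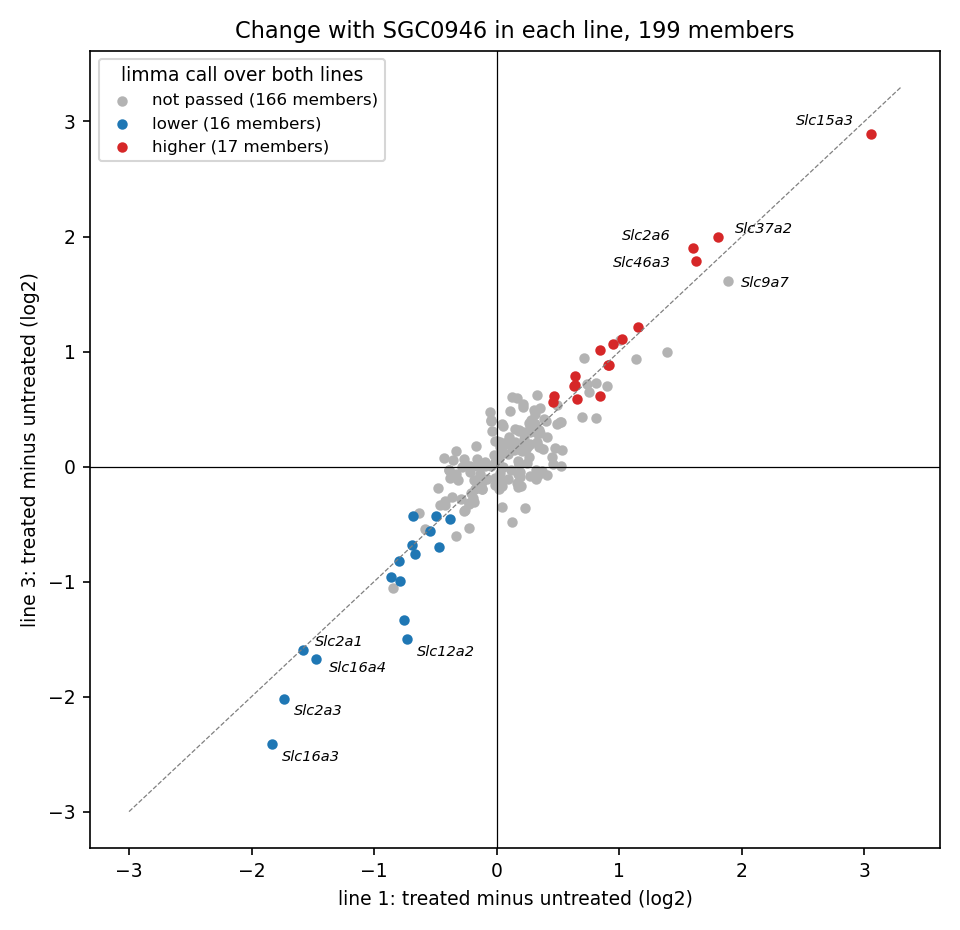
Change of each of the 199 members with SGC0946 in line 1 (x axis) and in line 3 (y axis), as treated minus untreated on the log2 scale; blue points fell and red points rose by limma over both lines, grey points did not pass, and the dashed line marks equal change. Called members lie along the diagonal, from Slc16a3 (−1.84 in line 1 and −2.42 in line 3) to Slc15a3 (3.06 in line 1 and 2.89 in line 3), and Slc9a7 is the grey point among the highest red ones.

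The main carriers of glucose fell. Slc2a1 encodes GLUT1, the widespread carrier of basal glucose uptake, and stood at 12.03, 12 and 12.17 in untreated lines 1 to 3, at 10.99 in untreated line 4 and at 10.45 and 10.57 in treated lines 1 and 3. Both treated arrays were below all 4 untreated ones, and line 4 lay between. It fell by 1.59 ± 0.28 (SE, n = 2 treated and 2 untreated arrays), or 3.01-fold (limma adjusted p = 0.0153). Its 3 probe sets gave changes of −1.65, −1.59 and −1.59. Slc2a3, the high-affinity glucose carrier GLUT3, was at 12.83, 12.51, 12.96 and 11.48 in untreated lines 1 to 4 and at 11.10 and 10.95 with the inhibitor. Again the treated arrays were lowest and line 4 came next. It fell by 1.88 ± 0.32, or 3.67-fold (limma adjusted p = 0.0142), and its 4 probe sets changed by −2.42 to −1.88. Slc37a4, the carrier that brings glucose 6-phosphate into the endoplasmic reticulum, fell by 0.89 ± 0.20 from 9.84 and 9.70 in lines 1 and 3 (limma adjusted p = 0.0313).

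Other members of the sugar class rose. Slc2a6, the glucose carrier family member GLUT6, was at 6.48, 6.48, 6.33 and 6.11 in untreated lines 1 to 4 and at 8.09 and 8.22 with SGC0946, so that the groups were well apart. The gene rose by 1.75 ± 0.20, or 3.36-fold (limma adjusted p = 0.00448). Slc37a2, a sugar phosphate exchanger of the endoplasmic reticulum known from macrophages, was at 6.18, 5.98, 6.0 and 6.27 untreated and at 7.98 and 7.99 treated. This is a rise of 1.90 ± 0.34, or 3.73-fold (limma adjusted p = 0.015), which did not pass in the blocked fit (limma adjusted p = 0.056). The urate carrier gene Slc2a9 was at 1.19 ± 0.38 and did not pass (limma adjusted p = 0.0891), with its other probe set at −0.04. Of the 23 members of the sugar families (which include carriers of inositol, iodide and vitamins, such as Slc5a3, Slc5a5 and Slc5a6) 3 rose, 4 fell and 16 did not pass, with a median of 0.17.

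Lactate and related carboxylate carriers moved in both directions. Slc16a3 encodes MCT4, which exports lactate from glycolytic cells. Its values were 8.21, 8.18, 8.61 and 6.65 in untreated lines 1 to 4 and 6.37 and 6.20 in treated lines 1 and 3. Line 4 was far closer to the treated arrays than to lines 1 to 3. The gene fell by 2.13 ± 0.54, or 4.36-fold (limma adjusted p = 0.0459; 0.0567 with the block by line). Slc16a4, an orphan of the same family, went from 6.70 and 6.73 to 5.22 and 5.05, and it fell by 1.57 ± 0.38 (limma adjusted p = 0.0396). Slc16a6, which exports ketone bodies, fell by 0.91 ± 0.19 from 11.57 and 11.55 (limma adjusted p = 0.0225, and 0.0672 with the block). Slc16a1, the widespread lactate carrier MCT1, was at −0.28 ± 0.17 and did not pass (limma adjusted p = 0.355).

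The family members that rose were Slc16a14, by 1.0 ± 0.17 (limma adjusted p = 0.0141), and Slc16a13, by 0.73 ± 0.18 (limma adjusted p = 0.0402, and 0.0587 with the block). Slc16a14 entered the list through its treated values of 6.57 and 6.86, so its direction was fixed by the filter. Over the class of carboxylates, fatty acids and lipid precursors 2 of 22 rose, 3 fell and 17 did not pass, with a median of 0.02, and with the block 2 rose and 1 fell. Bsg, the chaperone that takes MCT1 and MCT4 to the plasma membrane and is itself no solute carrier, fell by 0.79 ± 0.19 (limma adjusted p = 0.0368). The choline carrier Slc44a1 was at 9.66, 9.63 and 9.65 in untreated lines 1 to 3, at 10.45 in line 4 and at 10.67 and 10.75 treated. Its difference of 1.05 ± 0.62 did not pass (limma adjusted p = 0.345), in a fit whose SE takes in the spread among NUP98-JARID1A lines (SD 1.12). Slc44a2, a further choline carrier, was at 0.27 ± 0.10 (limma adjusted p = 0.122).

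**Figure D2:**
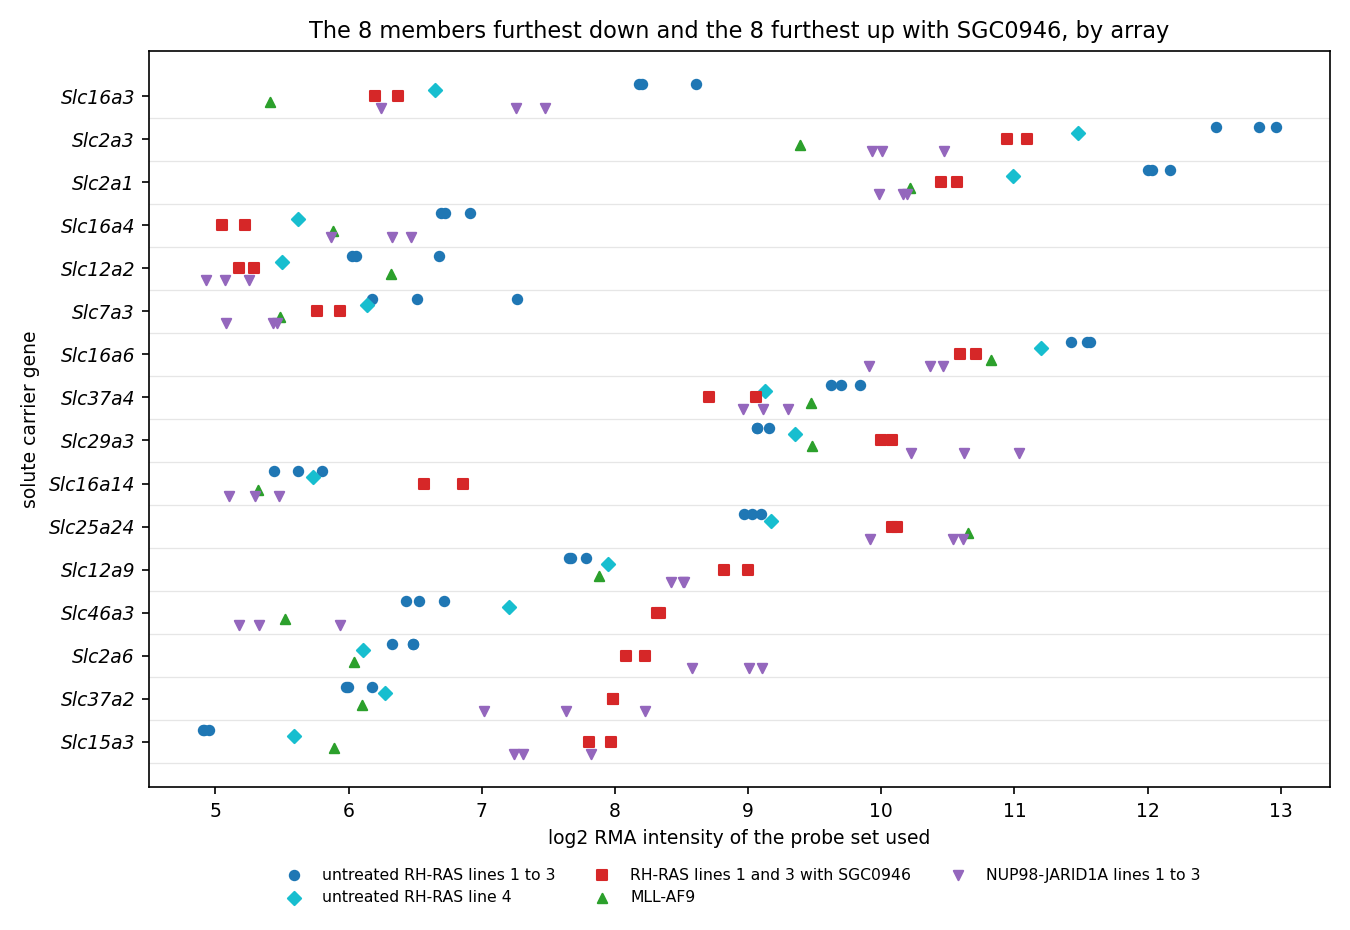
Log2 RMA intensity on each of the 10 arrays (x axis) of the 8 members with the largest falls and the 8 with the largest rises under SGC0946 (y axis), with 1 symbol and colour for each group and untreated RH-RAS line 4 shown apart. Treated arrays lie below untreated lines 1 to 3 for the genes in the upper part and above them for those in the lower part, and line 4 often lies between, as for Slc2a1 at 10.99.

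The largest rise of the 33 called members was in a carrier of amino acids and peptides. Slc15a3, a proton-coupled carrier that takes peptides and histidine out of lysosomes, was at 4.92, 4.95 and 4.91 in untreated lines 1 to 3, below the array median, at 5.59 in line 4, and at 7.97 and 7.80 with SGC0946. Its probe set was above the array median on 6 arrays, none of them an untreated RH-RAS array. It thus passed the filter through the treated, MLL-AF9 and NUP98-JARID1A arrays alone. The gene rose by 2.98 ± 0.25, or 7.87-fold (limma adjusted p = 0.00293). As RMA compresses low intensities, this fold change may be understated. Slc66a1, a lysosomal exporter of cationic amino acids, rose from 7.45 and 7.37 to 8.09 and 8.15, by 0.71 ± 0.09 (limma adjusted p = 0.00618). Slc66a2 of the same family rose by 0.90 ± 0.19 (limma adjusted p = 0.0253, and 0.0787 with the block).

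Of the carriers of cationic amino acids at the plasma membrane, Slc7a1 and Slc7a3 fell. Slc7a1, or CAT1, fell by 0.69 ± 0.14 from 12.17 and 12.08 to 11.47 and 11.40 (limma adjusted p = 0.0203, and 0.0607 with the block). Slc7a3, or CAT3, fell by 1.04 ± 0.24 (limma adjusted p = 0.0332), unequally in the lines (−0.76 in line 1 and −1.33 in line 3). The named carriers of glutamine and large neutral amino acids did not pass. Both subunits of the leucine carrier LAT1, Slc7a5 (0.24 ± 0.29) and its heavy chain Slc3a2 (0.11 ± 0.22), the glutamine carrier Slc1a5 (0.17 ± 0.15) and the neutral amino acid carrier Slc38a2 (−0.22 ± 0.10) had adjusted p between 0.229 and 0.829 by limma. In the class of 41, 3 rose, 3 fell and 35 did not pass, with a median of 0.10, and with the line as a block 2 rose and 1 fell. Without untreated line 4, 1 member of the class fell.

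In the class of sodium, potassium, calcium, chloride and proton exchange 2 of 12 members rose, 1 fell and 9 did not pass. With the line as a block 2 rose and 1 fell. Slc12a9, of the cation-chloride cotransporter family, was at 7.67, 7.65, 7.78 and 7.95 in untreated lines 1 to 4 and at 8.82 and 9.0 treated, and rose by 1.18 ± 0.13, or 2.27-fold (limma adjusted p = 0.0038). The potassium-chloride cotransporter Slc12a4 rose by 0.90 ± 0.19 (limma adjusted p = 0.024). Slc12a2, the sodium-potassium-chloride cotransporter NKCC1, fell by 1.12 ± 0.25 (limma adjusted p = 0.0312), by 0.74 in line 1 and by 1.50 in line 3; its other probe sets, of lower signal, were at −0.08 and −0.38. Slc9a7, a sodium-proton exchanger of the Golgi, was at 8.09, 8.21, 8.55 and 9.16 in untreated lines 1 to 4 and at 9.98 and 10.16 treated. Its difference of 1.75 ± 0.51 is as large as that of Slc2a6, yet it did not pass (limma adjusted p = 0.0669); NUP98-JARID1A lines, which enter its SE, spread from 6.94 to 8.53. Slc20a1, the phosphate carrier PiT1, fell by 0.72 ± 0.13 (limma adjusted p = 0.0164), with its other probe sets at −1.14 and 0.01.

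In the zinc, copper and magnesium class 2 of 22 fell by limma (1 with the block), 20 did not pass, and 0 rose (7 had an unadjusted p under 0.05 in that direction, and 1 passed without untreated line 4). Slc30a9 fell by 0.81 ± 0.14 from 10.67 and 10.58 to 9.88 and 9.76 (limma adjusted p = 0.0137). The zinc carriers Slc30a4 (0.10 ± 0.25), Slc30a5 (0.40 ± 0.14), Slc39a6 (−0.16 ± 0.11) and Slc39a8 (0.62 ± 0.32) did not pass. The zinc importer Slc39a4 (−0.12 ± 0.43) and the copper carrier Slc31a2 (0.20 ± 0.24) did not pass either. In the class of bicarbonate, sulfate, phosphate and vesicular anions, Slc20a1 was the 1 member of 13 called, and the chloride-bicarbonate exchanger Slc4a2 was at 0.34 ± 0.19.

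Carriers of nucleosides, vitamins and heme held 4 members that rose and 1 that fell, of 12, and with the line as a block 1 that rose and 0 that fell. Slc46a3, a lysosomal member of the proton-coupled folate carrier family, was at 6.72, 6.43, 6.53 and 7.20 in untreated lines 1 to 4 and at 8.34 and 8.32 treated, with line 4 between the rest of its group and the treated arrays. The rise was 1.71 ± 0.31, or 3.26-fold (limma adjusted p = 0.0153). Slc29a3, the lysosomal nucleoside carrier ENT3, rose from 9.16 and 9.06 to 10 and 10.08, by 0.93 ± 0.24 (limma adjusted p = 0.0475, and 0.119 with the block). Slc49a4 fell by 0.58 ± 0.11 (limma adjusted p = 0.0179, and 0.0607 with the block). The plasma membrane nucleoside carrier Slc29a1 (−0.07 ± 0.18), the reduced folate carrier Slc19a1 (−0.16 ± 0.11), the folate carrier Slc46a1 (0.10 ± 0.31) and the lysosomal heme exporter Slc48a1 (0.02 ± 0.12) did not pass.

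Mitochondrial carriers were mostly not called, with 3 of 39 risen, 1 fallen and 35 not passed, and 0 called with the line as a block (9 had an unadjusted p under 0.05 by limma in the fit without the block). Slc25a24, which exchanges ATP-magnesium for phosphate, rose from 9.09 and 8.97 to 10.12 and 10.08, by 1.07 ± 0.22 (limma adjusted p = 0.0238, and 0.0768 with the block). The phosphate carrier Slc25a3 (0.05 ± 0.09) and the ADP/ATP carrier Slc25a5 (0.09 ± 0.09) did not pass and moved by less than 0.1 in the mean. Slc25a37, the mitochondrial iron importer mitoferrin 1, was at 10.14, 10.20, 10.36 and 9.88 in untreated lines 1 to 4 and at 9.30 and 9.31 treated, a difference of −0.95 ± 0.30 that did not pass (limma adjusted p = 0.0898). By limma 0 of 5 nucleotide sugar carriers passed (3 at an unadjusted p under 0.05), with Slc35a3, which brings UDP-N-acetylglucosamine into the Golgi, at 0.31 ± 0.14 and Slc35a4 at 0.34 ± 0.10. Of the 8 carriers of organic ions 0 passed by limma (0 at an unadjusted p under 0.05), with the carnitine carrier Slc22a5 at −0.13 ± 0.13 and Slc22a15 at 0.05 ± 0.20. Of the other 2 members (the urea carriers Slc14a1 (−0.07 ± 0.60) and Slc14a2 (0.01 ± 0.10)), 0 passed by limma, and 0 had an unadjusted p under 0.05.

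Untreated line 4 stood apart from lines 1 to 3 in the called members. For 28 of the 33, of which 14 rose and 14 fell, its value was intermediate between those of lines 1 to 3 and the treated arrays. The same held for 1092 of all 1434 genes called (76.2%) and for 35 of the 166 members not called (21.1%). With all 4 untreated lines as control, Slc12a2, Slc16a3, Slc37a4 and Slc7a3 did not pass (limma adjusted p = 0.0707, 0.0734, 0.0504 and 0.166). Line 4 enters the inhibitor fit through the spread alone, and without it 19 members rose and 14 fell, with 30 of the 33 among them. The mean of its measured monocyte and macrophage markers (9.63) lay between the same arrays. Of single markers, Itgam (6.68) was within the range of lines 1 to 3, and Ccr2 (12.77) was above both treated arrays.

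The sequence before the start site was compared for motifs. RefSeq promoter windows (GRCm38.p6) were on hand for 152 of the 199 members, 202 windows in all, and the 250 bases before each start were searched on both strands for 4 motifs. These were TGATGNAA, the amino acid response element read by ATF4; CACGTG, the E-box read by MYC and TFEB; GAGGAAGT, read by PU.1; and TGACTCA, read by AP-1. The E-box was in 13.9% of the members' windows, in 8.25% of 12393 windows of genes tested and in 6.02% of all 32851 windows. It was in 1 of 14 windows of members that rose and in 3 of 17 of members that fell. The amino acid response element was in 2.48% of the members' windows and 2.01% of those of genes tested. For PU.1 the shares were 2.97% and 2.53%, and for AP-1 3.47% and 3.28%. A match is a description of the letters, not a site of binding. Below are the 250 bases before the start, 5′ to 3′, of Slc2a1 (a carrier that fell, with 0 matches), of Slc12a9 and Slc37a2 (both rose, with 1 E-box and 1 AP-1 match) and of Slc22a4 (furthest up in NUP98-JARID1A lines, with 1 E-box). Capitals mark the matches.
Slc2a1 at chr4:119108495-119108744, plus strand: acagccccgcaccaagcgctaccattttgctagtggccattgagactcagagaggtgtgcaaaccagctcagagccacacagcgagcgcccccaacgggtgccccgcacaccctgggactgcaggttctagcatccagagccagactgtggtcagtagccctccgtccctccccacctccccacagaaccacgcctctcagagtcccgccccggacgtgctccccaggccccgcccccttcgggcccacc
Slc12a9 at chr5:137333583-137333832, minus strand: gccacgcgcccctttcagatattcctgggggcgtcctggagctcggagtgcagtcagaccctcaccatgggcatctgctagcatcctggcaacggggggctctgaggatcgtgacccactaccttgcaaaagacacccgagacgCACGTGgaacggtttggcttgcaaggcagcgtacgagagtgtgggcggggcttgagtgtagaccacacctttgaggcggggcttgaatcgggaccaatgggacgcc
Slc37a2 at chr9:37255739-37255988, minus strand: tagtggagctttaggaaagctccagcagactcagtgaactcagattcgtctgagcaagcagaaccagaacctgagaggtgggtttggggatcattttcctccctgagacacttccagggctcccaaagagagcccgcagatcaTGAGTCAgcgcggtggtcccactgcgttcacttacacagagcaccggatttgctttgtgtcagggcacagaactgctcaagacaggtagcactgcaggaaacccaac
Slc22a4 at chr11:54028105-54028354, minus strand: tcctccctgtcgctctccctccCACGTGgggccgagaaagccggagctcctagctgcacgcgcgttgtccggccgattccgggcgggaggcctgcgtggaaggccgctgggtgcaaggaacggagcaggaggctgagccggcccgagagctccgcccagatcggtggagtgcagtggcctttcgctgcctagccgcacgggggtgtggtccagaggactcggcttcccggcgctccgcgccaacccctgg
In Slc12a9 the E-box begins at position −106 from the start, in Slc22a4 at −228, and in Slc37a2 the AP-1 match, read on the other strand, begins at −107.

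The next comparison sets the 3 NUP98-JARID1A lines against the 4 untreated RH-RAS lines. Carriers of GABA and taurine and of lysosomal amino acids were higher in NUP98-JARID1A lines, and a vesicular zinc carrier and the main glucose carriers were lower. Carriers of ergothioneine and of calcium were also higher, and a fatty acid carrier lower. These passed the filter only through the arrays where they are high, so their direction followed from the filter. By limma 75 members were higher, 37 lower and 87 did not pass. The 112 called are 56.3% of the members, beside 51.0% of all genes tested (32.5% higher and 18.5% lower), so the share lies near the background. The median difference was 0.18 over the members and 0.10 over all genes. Subtracting each array's median over the tested genes shifted the median of all genes by −0.25, and the split became 50 higher and 67 lower (55.4% of all genes called, 19.5% higher and 35.9% lower). None of the 112 turned direction, and 87 kept call and direction, so the call of a difference near the size of that shift depends on the scaling. The labels do not call the NUP98-JARID1A lines independently derived, and p-values measure the spread between these samples. Among the called members, changes of at least 2-fold numbered 28 up and 16 down. The matching share of all genes tested was not computed, so these counts are not set against a background.

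**Figure D3:**
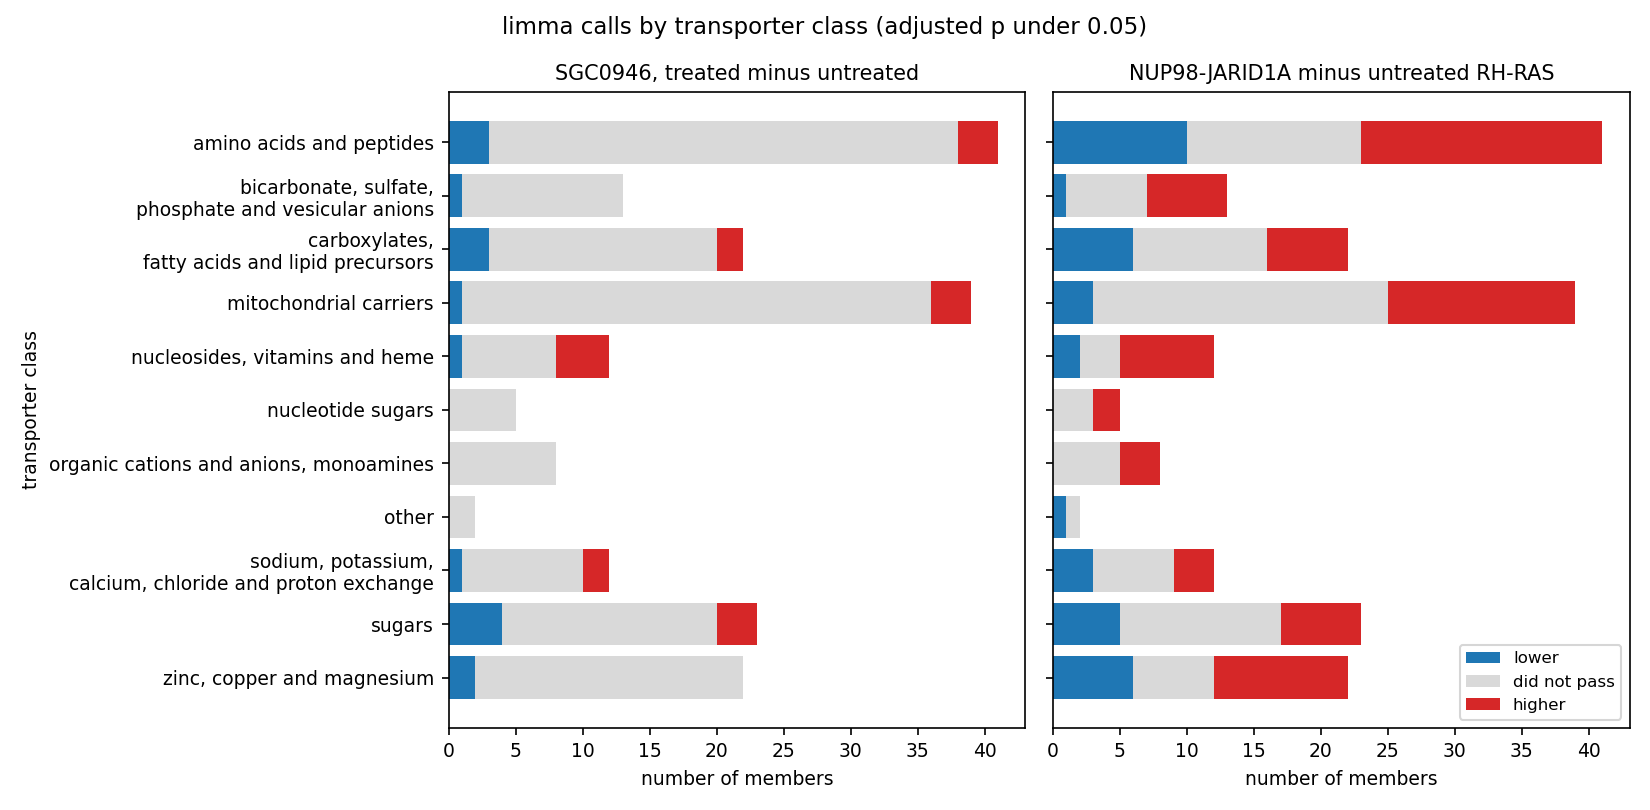
Number of members (x axis) in each transporter class (y axis) that were lower (blue), did not pass (grey) or were higher (red) by limma at an adjusted p under 0.05, for SGC0946 in RH-RAS lines 1 and 3 (left) and for NUP98-JARID1A against untreated RH-RAS lines (right). The left panel is mostly grey, with 166 of 199 not passed, and in the right panel the mitochondrial carriers have 14 higher and 3 lower.

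An organic ion carrier and a calcium carrier gave the largest positive differences among the members. Both, with Slc46a1, Slc25a35, Slc52a3, Slc6a7 and Slc12a5, are the 7 members that no RH-RAS array, with or without SGC0946, showed above its median. These 7 passed the filter only through arrays of the other lines, where they are high, so the direction of their differences (6 called higher, 1 not passed) followed from the filter. Slc22a4, the ergothioneine carrier OCTN1, was at 3.33, 3.44, 3.44 and 3.16 in untreated RH-RAS lines 1 to 4, low on the scale, and at 8.23, 6.58 and 7.82 in NUP98-JARID1A lines 1 to 3. The groups lay far apart, with a difference of 4.20 ± 0.35 (SE, n = 3 and 4 arrays), or 18.4-fold (limma adjusted p = 0.000119), which may be understated since RH-RAS levels were low. Slc22a5, the carnitine carrier OCTN2 of the same family, was higher by 0.75 ± 0.11 (limma adjusted p = 0.00127). Slc24a3, a potassium-dependent sodium-calcium exchanger, was at 5.34, 5.33, 5.12 and 5.32 in RH-RAS lines and at 8.30, 8.41 and 8.84 in NUP98-JARID1A lines, 9.44-fold higher (3.24 ± 0.14; limma adjusted p = 8.14e-06). Of 8 organic ion carriers 3 were higher and 5 did not pass, and after median subtraction 2 were higher and 2 lower. Slc22a15 was at −0.39 ± 0.15. Slc12a9 was higher (0.72 ± 0.09) and NKCC1, Slc12a2, lower (−0.98 ± 0.25). The exchanger Slc9a9 of recycling endosomes differed by −1.18 ± 0.24 (limma adjusted p = 0.00558), and Slc9a7 (−0.73 ± 0.40) and Slc12a4 (−0.04 ± 0.15) did not pass. The class of sodium, potassium, calcium, chloride and proton exchange had 3 higher and 3 lower of 12, and 3 and 5 after median subtraction.

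**Figure D4:**
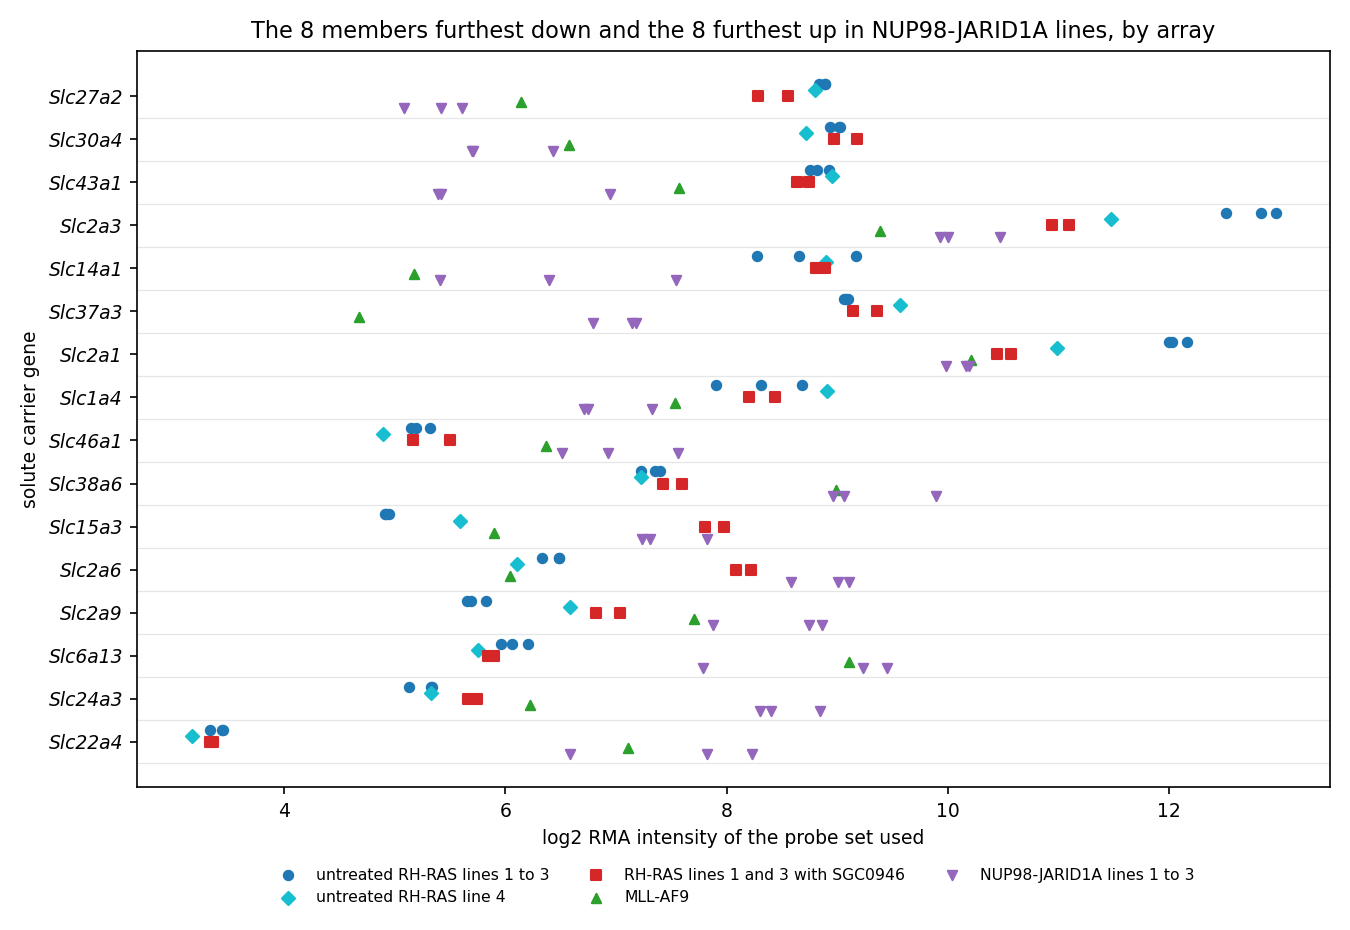
Log2 RMA intensity on each of the 10 arrays (x axis) of the 8 members furthest below and the 8 furthest above untreated RH-RAS lines in NUP98-JARID1A lines (y axis), with symbols and colours as given in the legend. The NUP98-JARID1A arrays lie outside the range of the untreated RH-RAS arrays for all 16 genes drawn, and for Slc22a4, Slc6a13 and Slc38a6 the MLL-AF9 array lies with them.

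In the amino acid and peptide class 18 of 41 were higher and 10 lower, and after median subtraction the balance turned to 10 higher and 16 lower. Those higher included carriers of GABA, of the lysosome and of the basolateral membrane. Slc6a13, the GABA and taurine carrier GAT2, was at 6.21, 6.06, 5.96 and 5.75 in RH-RAS lines and at 7.79, 9.23 and 9.45 in NUP98-JARID1A lines, a difference of 2.83 ± 0.38, or 7.11-fold (limma adjusted p = 0.000767). Slc15a3 was at 7.31, 7.24 and 7.82, 5.16-fold above the RH-RAS lines (2.37 ± 0.22, limma adjusted p = 0.000159). No untreated RH-RAS array showed Slc15a3 above its median, so this gene passed the filter through the other arrays alone. Slc38a6, a sodium-coupled neutral amino acid carrier, was at 8.97, 9.06 and 9.89 against 7.23 to 7.40 in RH-RAS lines (2.01 ± 0.22; limma adjusted p = 0.000315). Slc36a1, which exports amino acids from lysosomes with protons, differed by 1.71 ± 0.15 (limma adjusted p = 0.00014), and the cationic and neutral amino acid exchanger Slc7a7 by 1.59 ± 0.37 (limma adjusted p = 0.00947). Slc66a1 (0.44 ± 0.07) and Slc66a2 (0.87 ± 0.16) were also higher, Slc66a1 not after median subtraction (limma adjusted p = 0.0713).

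Plasma membrane carriers of neutral amino acids were among those lower. Slc43a1, the leucine carrier LAT3, was at 8.93, 8.82, 8.76 and 8.96 in RH-RAS lines and at 5.39, 6.95 and 5.41 in NUP98-JARID1A lines, with line 2 above the others. The difference was −2.95 ± 0.36, or 7.72-fold (limma adjusted p = 0.000549). The serine and alanine carrier Slc1a4 differed by −1.52 ± 0.26 (limma adjusted p = 0.00242) and Slc7a3 by −1.20 ± 0.28. Slc7a5 stood at 11.42, 11.17, 11.78 and 12.01 in RH-RAS lines and at 10.80, 10.42 and 10.29 in NUP98-JARID1A lines (−1.09 ± 0.22; limma adjusted p = 0.00492), while its partner Slc3a2 was at −0.39 ± 0.17 and did not pass (limma adjusted p = 0.0943). Slc38a2 was lower on all 3 arrays, at 11.48, 11.29 and 11.39 against 12.38 to 12.50 (−1.07 ± 0.08; limma adjusted p = 6.79e-05), and Slc7a1 differed by −0.44 ± 0.12. Slc1a5 was at 0.36 ± 0.12 (limma adjusted p = 0.0349), a call lost after median subtraction, and its other probe set, at −0.71, had the opposite sign.

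Among members of the sugar families 6 of 23 were higher, 5 lower and 12 did not pass, and after median subtraction 6 were higher and 10 lower. Slc2a9, which carries urate, was at 5.65, 5.69, 5.83 and 6.58 in RH-RAS lines 1 to 4 and at 7.88, 8.86 and 8.75 in NUP98-JARID1A lines (2.56 ± 0.31, 5.9-fold; limma adjusted p = 0.000492), but its other probe set was at 0.39. Slc2a6 was at 9.01, 8.58 and 9.11, 5.86-fold higher than in RH-RAS lines (2.55 ± 0.15; limma adjusted p = 3.16e-05), and Slc37a2 was at 7.02, 7.63 and 8.23 (1.52 ± 0.26; limma adjusted p = 0.00227). The glucose carriers were lower. Slc2a3 was at 9.93, 10.01 and 10.47 (−2.31 ± 0.35, 4.96-fold; limma adjusted p = 0.00143) and Slc2a1 at 10.19, 10.16 and 9.98 (−1.69 ± 0.27, 3.22-fold; limma adjusted p = 0.0019). Slc37a3, a lysosomal member of the sugar phosphate family, was at 9.10, 9.08, 9.06 and 9.57 in RH-RAS lines and at 6.79, 7.18 and 7.15 here (−2.16 ± 0.16, 4.47-fold; limma adjusted p = 7.32e-05), and Slc37a4 did not pass (−0.45 ± 0.18).

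The inhibitor comparison and this one share untreated lines 1 and 3, so their values are set side by side and their likeness is not tested. Slc15a3 differed by 2.98 ± 0.25 with SGC0946 and by 2.37 ± 0.22 in NUP98-JARID1A lines, and Slc2a6 by 1.75 ± 0.20 and 2.55 ± 0.15. For Slc2a3 the values were −1.88 ± 0.32 and −2.31 ± 0.35. Slc46a3 differed in sign, 1.71 ± 0.31 with the inhibitor and −1.24 ± 0.24 in NUP98-JARID1A lines (limma adjusted p = 0.00414), where it stood at 5.94, 5.17 and 5.32. Among the 24 members called in both comparisons, Slc16a14 (1.00 and −0.36), Slc20a1 (−0.72 and 0.41) and Slc25a1 (−0.42 and 0.285) also had opposite signs with the probe sets used.

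A fatty acid carrier was lower in NUP98-JARID1A lines, and carriers of zinc and other metals differed in both directions, with 10 of 22 higher and 6 lower, which became 5 and 10 after median subtraction. Slc27a2, the very long chain fatty acid carrier and acyl-CoA synthetase FATP2, was at 8.89, 8.84, 8.89 and 8.80 in RH-RAS lines 1 to 4 and at 5.61, 5.42 and 5.08 in NUP98-JARID1A lines. The arrays within each group differed by little, and the difference was −3.48 ± 0.13, or 11.2-fold (limma adjusted p = 4.93e-06). Slc27a2, Slc12a2, Slc16a14, Slc39a8, Slc45a3, Slc7a3 and Slc9a5 are the 7 members below the array median on every NUP98-JARID1A array. They passed the filter through other arrays, and 6 of them were called lower here. Slc30a4, which fills vesicles with zinc, was at 8.93, 9.01, 9.03 and 8.72 and 5.70, 6.43 and 5.70, a difference of −2.98 ± 0.19 or 7.88-fold (limma adjusted p = 4.11e-05). The zinc and manganese importer Slc39a8 (−1.17 ± 0.25; 0.11 with its other probe set), Slc30a9 (−0.69 ± 0.14) and the zinc importer Slc39a6 (−0.33 ± 0.08; −1.43 and −1.46 with 2 of its other probe sets) were lower, and Slc30a5 (−0.28 ± 0.11) did not pass. In the other direction the copper carrier Slc31a2 was at 9.50, 8.70 and 9.21 against 7.37 to 7.58 in RH-RAS lines (1.65 ± 0.18; limma adjusted p = 0.000335), and Slc39a4 differed by 1.53 ± 0.34 (limma adjusted p = 0.00791). The zinc carrier Slc30a7 of the Golgi was higher by 1.10 ± 0.12 (limma adjusted p = 0.000345).

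In the carboxylate and lipid class 6 of 22 were higher and 6 lower, which became 4 and 9 after median subtraction. The ketone body carrier Slc16a6 was lower, at 10.37, 10.46 and 9.91 against 11.20 to 11.57 (−1.19 ± 0.16; limma adjusted p = 0.000734), as were MCT1, Slc16a1 (−0.58 ± 0.13; 0.36 with a dim probe set), and Slc16a14 (−0.36 ± 0.12). MCT4, Slc16a3, was at 7.47, 6.24 and 7.26, between untreated line 4 and lines 1 to 3 on 2 of the 3 arrays, and did not pass (−0.92 ± 0.50; limma adjusted p = 0.161). Neither did Slc16a4 (−0.27 ± 0.32) and Slc44a1 (−0.91 ± 0.49). The choline carrier Slc44a2 was at 12.57, 12.70 and 12.70 against 11.23 to 11.37 (1.36 ± 0.08, 2.57-fold; limma adjusted p = 2.25e-05), with its other probe sets at 1.53 and −0.12. Slc16a13 was higher by 1.16 ± 0.15.

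Carriers of nucleosides, vitamins and heme were mostly higher, 7 of 12, with 2 lower and 3 not passed, and 6 and 2 after median subtraction. The folate and heme carrier Slc46a1 stood at 5.32, 5.19, 5.15 and 4.90 in RH-RAS lines and at 6.93, 6.51 and 7.56 in NUP98-JARID1A lines (1.86 ± 0.24, 3.64-fold; limma adjusted p = 0.000626). Slc48a1, which exports heme from lysosomes, was at 10.62, 10.76 and 10.85 against 9.37 to 9.61 (1.21 ± 0.10; limma adjusted p = 8.75e-05). Slc19a1 (0.57 ± 0.09) and Slc29a1 (0.51 ± 0.14) were higher, the latter not after median subtraction, and Slc49a4 did not pass (0.11 ± 0.08). Slc29a3 differed by 1.47 ± 0.19 (limma adjusted p = 0.000625), but its other probe set was at −1.50, so its direction depends on the probe set.

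Mitochondrial carriers had 14 higher, 3 lower and 22 not passed of 39, and 9 and 8 after median subtraction. Slc25a24 was at 10.54, 9.92 and 10.62 against 8.97 to 9.17 (1.29 ± 0.17; limma adjusted p = 0.000748). Slc25a3 (−0.10 ± 0.07) and Slc25a37 (−0.02 ± 0.24) did not pass. Nor did Slc25a5 (0.10 ± 0.07), whose 8 probe sets ranged from −1.89 to 0.49. The urea carrier Slc14a1 was at 8.66, 8.27, 9.17 and 8.90 in RH-RAS lines and at 5.41, 7.55 and 6.40 here (−2.30 ± 0.47; limma adjusted p = 0.00522), and Slc14a2 did not pass (−0.07 ± 0.08). Slc20a1 was higher by 0.41 ± 0.10 with the probe set used (limma adjusted p = 0.0131) and at −1.40 and −0.29 with the others. The anion exchanger Slc4a2 (0.30 ± 0.15) and Slc35a3 (0.20 ± 0.11) did not pass, and Slc35a4 was higher by 0.45 ± 0.09 with 1 probe set and at −0.62 with another of like level.

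The MLL-AF9 line was profiled on 1 array, so it has no replicate check and was not tested. A member counts as apart here where it lay outside the range of the 4 untreated RH-RAS arrays and at least 1 on the log2 scale from their mean. This held for 36 members (18.1%), 18 above and 18 below, beside 13% of all genes tested (7.21% above and 5.78% below). The furthest below was Slc37a3, at 4.67 against a range of 9.06 to 9.57 in RH-RAS lines, a difference of −4.53 or 23.1-fold. The urea carrier Slc14a1 came next, at 5.18 (−3.57), followed by the glucose carrier Slc2a3 at 9.39 against 11.48 to 12.96 (−3.06, 8.33-fold). The fatty acid carrier Slc27a2 was at 6.14 (−2.71), the choline carrier Slc44a1 at 7.26 (−2.58) and the lactate exporter Slc16a3 at 5.41 (−2.50). Slc37a3, Slc14a1 and Slc16a3 lay below the array median in MLL-AF9, where RMA compresses differences.

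**Figure D5:**
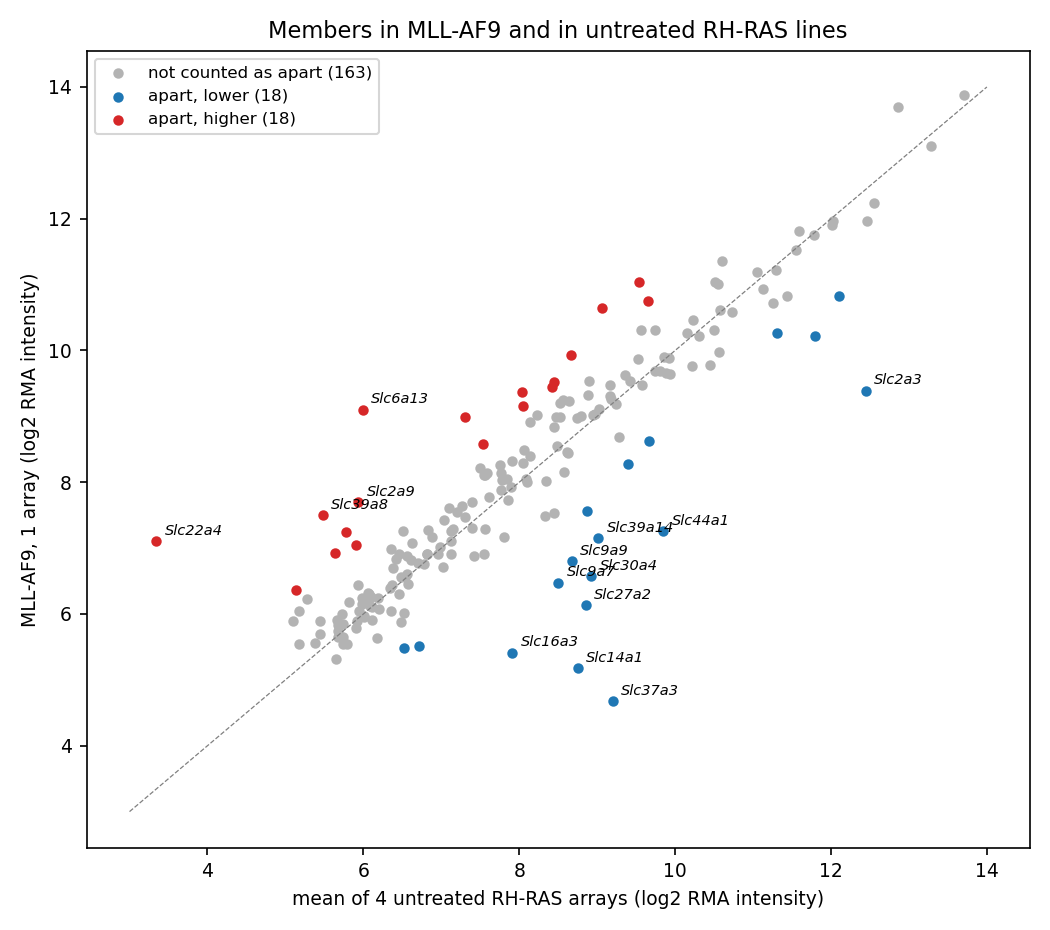
Log2 RMA intensity of each of the 199 members on the single MLL-AF9 array (y axis) against the mean of the 4 untreated RH-RAS arrays (x axis); red and blue points lie outside the RH-RAS range and at least 1 from its mean, and the dashed line marks equality. Slc22a4 stands at 7.11 against a mean of 3.34, and Slc37a3 at 4.67 against 9.20.

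Above the RH-RAS lines the order began with Slc22a4, at 7.11 against 3.16 to 3.44 (3.76, 13.6-fold), and Slc6a13, at 9.10 against 5.75 to 6.21 (3.11, 8.62-fold). Both were also high in NUP98-JARID1A lines. Slc39a8 was at 7.50 in MLL-AF9, at 5.12 to 5.93 in untreated RH-RAS lines and at 4.07 to 4.75 in NUP98-JARID1A lines, so that MLL-AF9 lay above the RH-RAS range and NUP98-JARID1A below it. The urate carrier Slc2a9 (1.77, and 0.02 with its other probe set), Slc38a6 (1.69) and Slc25a24 (1.59) followed. The glucose carrier Slc2a1 was at 10.21, below all 4 untreated RH-RAS lines (−1.59). Slc15a3 was at 5.89, above the range of 4.91 to 5.59 but less than 1 from its mean (0.80), and Slc2a6 differed by −0.31. Slc29a1 was lower in MLL-AF9, at 8.27 against 9.18 to 9.55, where NUP98-JARID1A lines were at 9.60 to 10.10.

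For comparison, 56 other transport genes were tested, among them ABC transporters, which pump lipids and drugs with ATP, the Slco and Mfsd families, and the 4 solute carriers set aside. With SGC0946 8 rose and 1, Bsg, fell, with a median of 0.10, beside 6.84% higher and 5.12% lower over all genes tested. The cholesterol exporters Abca1 and Abcg1 rose by 1.48 ± 0.25 and 1.51 ± 0.29 (limma adjusted p = 0.0141 and 0.0198), the drug exporter Abcb1b by 1.45 ± 0.26 and Mfsd12, a carrier of lysosomes and melanosomes, by 1.02 ± 0.11 (limma adjusted p = 0.0158 and 0.0042). In NUP98-JARID1A lines 27 of the 56 were higher and 6 lower, with a median of 0.30. Of all genes tested 32.5% were higher and 18.5% lower there. These values are without array median subtraction, after which 19.5% of all genes tested were higher and 35.9% lower.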

How the data were processed

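Values are the authors' deposited log2 intensities per probe set, made with RMA per the submitters' processing notes; its version was not given in the sources used here. Array minima (2.21 to 2.34) and maxima (14.7 to 14.8) are nearly the same on all 10 arrays. No further normalisation was applied, and RMA gives no detection calls. For each of 18194 genes the probe set of highest mean was used; 118 of the 199 members had several. Of 11993 genes tested, the fit for SGC0946 used limma 3.58.1 in R 4.3.3 on all 10 arrays with 5 coefficients (treated minus untreated lines 1 and 3), and that for NUP98-JARID1A the 8 arrays without inhibitor. P-values were Benjamini-Hochberg adjusted over all genes, with a threshold of 0.05. Both fits were tested on simulated data.

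Treated and untreated arrays of lines 1 and 3 come from the same line, and their line differences correlated at r = 0.292 across genes. Named are the 12 members furthest up and down in each test, 6 each way for MLL-AF9, the 2 per class with the highest mean, and 12 always named, among them Slc2a1, Slc2a3 and Slc7a5; genes outside the rule were chosen after their values were seen. Members, classes and lists were chosen with earlier results of these data known. Alternatives covered probe set, filter, scaling, variance prior, pairing, arrays and left-out arrays.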

Additional observations from a re-analysis of the deposited data

Results flagged for a closer look

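Of the 64 members named, 8 had 1 untreated RH-RAS line far from the other 3. The cutoff lets through about 1 in 20 by chance among genes drawn without regard to their values. Most named members were chosen by their differences on these same arrays, so that rate is no yardstick here. In 7 of the 8 members the line apart was line 4. Slc15a3 measured 5.59 in line 4, against 4.91 to 4.95 for the others, and Slc16a4 at 5.62 against 6.70 to 6.91. Slc20a1 was at 9.69 against 9.90 to 9.93, and the glucose carrier Slc2a1 at 10.99 against 12 to 12.17. In these 4 genes, all called with SGC0946, line 4 differed from the other lines in the direction of the SGC0946 change. Slc37a3 was at 9.57 against 9.06 to 9.10, Slc44a1 at 10.45 against 9.63 to 9.66 and Slc9a9 at 9.12 against 8.48 to 8.55. Their SGC0946 differences had the same sign as that of line 4 but did not pass (0.172, 1.052 and 0.185). Slc24a3 measured 5.12 in line 3, against 5.32 to 5.34 for the others, all below the array median.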

How the results depend on the processing

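For the SGC0946 comparison, the replicate block by line gave 17 calls, 9 higher and 8 lower, against 33. Line 4 and line 2 have no pair there. Fitting only treated and untreated lines 1 and 3 gave 73 calls, with 48 members higher and 25 lower, with all 33 among them. That fit also called more of all genes tested than the 1434 of the main fit, so the rise in calls was not limited to the members. Leaving out 1 array gave 1 to 33 calls, 1 to 19 higher and 0 to 14 lower; where 0 fell by limma, 20 or 21 had an unadjusted p under 0.05 in that direction. None of the 33 changed sign under the alternatives run. All other alternatives stayed within 1.5 times of the counts. For NUP98-JARID1A, array median subtraction gave 67 lower members against 37. The number-matched replicate block, for numbers shared in name only (r = −0.054, −0.019 and 0.070, with 1 of 3 best matched by its own number), gave 66 higher and 31 lower. With the mean of all probe sets or the most variable one, 5 and 7 of the called members changed sign. Among those named these were Slc1a5 (−0.17 and −0.71), Slc20a1 (−0.43 and −1.40), Slc29a3 (−0.014 and −1.50) and Slc35a4 (−0.056 and −0.62); Slc25a5, not called as reported, passed at −0.45 and −1.89. These alternatives also change which members pass the filter (174 and 178 tested). Beside those losses given above, calls with SGC0946 were lost by Slc66a2 and Slc7a1 with the mean of all probe sets, Slc16a14 with the most variable one, and Slc16a3 and Slc29a3 without the filter (limma adjusted p = 0.0651, 0.0839, 0.063, 0.0522 and 0.0567). After median subtraction Slc16a13 and Slc29a3 lost it too (limma adjusted p = 0.0505 and 0.0577), and for NUP98-JARID1A so did Slc20a1 and Slc35a4 (limma adjusted p = 0.226 and 0.0811), beside Slc1a5, Slc29a1 and Slc66a1. For MLL-AF9, a distance of 2 left 11 members apart, 3 higher and 8 lower, against 36. RMA compresses low signals, which limits members near the array median.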

Other observations

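Some members varied widely among the 3 NUP98-JARID1A lines and less among the RH-RAS lines. These members were chosen after their values were seen. Slc43a3, a purine nucleobase carrier, was at 9.74 to 9.76 in the 4 untreated RH-RAS lines and at 8.35, 9.80 and 7.72 in NUP98-JARID1A lines 1 to 3. Slc13a2, a citrate and succinate carrier, was at 5.63, 7.12 and 7.77 in NUP98-JARID1A lines and at 5.95 to 6.19 in RH-RAS lines. The potassium-chloride cotransporter Slc12a5 was at 6.06, 6.04 and 8.0 in NUP98-JARID1A lines, with line 3 above the others. The choline carrier Slc44a1 was at 10.02, 7.79 and 8.99 there, at 9.63 to 9.66 in untreated RH-RAS lines 1 to 3 and at 10.45 in line 4. Over all members the median SD was 0.19 among NUP98-JARID1A lines and 0.12 among untreated RH-RAS lines, beside 0.16 and 0.12 over all genes tested.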
